A study of Mus musculus with 4 samples.

Results

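Strong narrow distal peaks are the high H3K27ac peaks, under 5000 bp wide, that lie away from annotated promoters in mouse hippocampal tissue. H3K27ac is acetylation of histone H3 at lysine 27, mapped here by chromatin immunoprecipitation and sequencing (ChIP-seq). A peak belonged to the set when its signal was at least 10, its width was under 5000 bp and it did not touch the window within 1 kb of any transcription start site (TSS) of the GENCODE M21 basic set. Of 88930 replicated peaks, 12491 had a signal of 10 or more, and 9640 of these touched a TSS window. Of the other 2851, 519 were 5000 bp or wider, which left 2332 members. They were 3.42% of the 68273 narrow distal peaks, and the 65941 with a signal under 10, called weak peaks below, are the comparison. Members were thus chosen by the signal, the authors' own value per peak, on a scale that the sources used here do not give. The 3 members nearest to the threshold had signals of 10.014 (263 kb from the TSS of Runx2), 10.017 (5.39 kb from Kctd14) and 10.017 (4.48 kb from Cpox). Just outside it lay peaks of 9.995 (Stard13) and 9.990 (Pard3).

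The tissue was labelled as a layer of the hippocampus and came from male B6CASTF1/J mice, a C57BL/6J by CAST F1 hybrid, aged 2 months. Each of the 2 pools, named C and D, joined 7 biosamples and was sequenced as 2 technical replicates from fragments of 200 to 600 bp, and no sample was treated or mutant. The pool is the unit of replication, and single animals cannot be followed. Peaks of 1 list share their libraries and are not replicates, so shares of peaks are given as descriptions without p-values, and those for place, further TSSs and CpG content are set beside their values in the separate peak list of each pool. Read totals were not in the files used, so depth is unknown, and a region with no peak is one where none was called.

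H3K27ac is written by the acetyltransferases CBP and p300 and is found at active promoters and at active enhancers, which are DNA elements that act on promoters at a distance. At CpG-rich promoters CG dinucleotides are kept at a high density, while most enhancers are CpG-poor. In hippocampal neurons the mark at enhancers is known to change with neuronal activity, and tissue holds neurons and glia together. A distal peak may mark an enhancer, but it may also mark a start site that the annotation in use leaves out, so members are described below by what other annotations hold at the same place.

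A set of 8 windows of the reference genome show the kinds of sequence under these peaks, each read from the GRCm38 (mm10) plus strand. In the first 3, chosen as the strongest member between genes, the strongest in an intron and the member farthest from any basic TSS, the capitals mark CG dinucleotides. In the next 3 the capitals mark an SP/KLF, a CRE or an EGR motif match. Each is the strongest such member outside the first 3 windows whose window holds no untranslated or non-coding exon. The exon condition passed over the third strongest member for SP/KLF and the member of rank 153 for EGR. The first window, of the strongest member, also holds the SP/KLF letters GGGCGG, which are not marked there. The seventh is a tRNA gene (n-TEttc7, in capitals) with its flanks inside the ninth strongest member, and the eighth is a member 12.3 kb downstream of the TSS of Fos with its SP/KLF matches in capitals. These last 2 were chosen after the values were seen.
Atp23 upstream, chr10:126928414-126928713: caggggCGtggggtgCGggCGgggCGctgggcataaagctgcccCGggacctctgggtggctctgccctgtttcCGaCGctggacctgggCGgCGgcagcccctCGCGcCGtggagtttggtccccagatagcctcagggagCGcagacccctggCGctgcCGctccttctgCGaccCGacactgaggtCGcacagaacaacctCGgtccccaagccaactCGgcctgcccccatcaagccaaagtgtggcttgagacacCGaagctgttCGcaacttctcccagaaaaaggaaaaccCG
Gm16675 intron, chr8:46686986-46687285: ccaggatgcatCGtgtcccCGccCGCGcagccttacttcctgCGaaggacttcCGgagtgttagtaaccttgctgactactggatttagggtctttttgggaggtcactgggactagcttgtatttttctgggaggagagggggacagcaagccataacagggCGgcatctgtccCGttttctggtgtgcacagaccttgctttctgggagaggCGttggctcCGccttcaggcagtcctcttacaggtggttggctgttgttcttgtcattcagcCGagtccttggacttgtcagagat
Farthest member, chr1:142043203-142043502: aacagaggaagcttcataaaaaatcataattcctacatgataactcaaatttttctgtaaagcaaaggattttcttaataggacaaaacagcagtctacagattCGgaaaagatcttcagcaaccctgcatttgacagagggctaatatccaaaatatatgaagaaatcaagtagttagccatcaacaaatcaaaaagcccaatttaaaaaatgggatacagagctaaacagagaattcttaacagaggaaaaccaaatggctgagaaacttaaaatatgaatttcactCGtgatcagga
Pum2 upstream, SP/KLF, chr12:8640794-8641093: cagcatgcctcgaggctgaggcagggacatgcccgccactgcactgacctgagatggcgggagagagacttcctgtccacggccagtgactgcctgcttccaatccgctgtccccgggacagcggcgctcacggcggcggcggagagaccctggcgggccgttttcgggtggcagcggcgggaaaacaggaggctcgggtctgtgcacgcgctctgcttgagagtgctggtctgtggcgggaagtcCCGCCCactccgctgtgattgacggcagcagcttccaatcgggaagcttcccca
1700001O22Rik downstream, CRE, chr2:30712194-30712493: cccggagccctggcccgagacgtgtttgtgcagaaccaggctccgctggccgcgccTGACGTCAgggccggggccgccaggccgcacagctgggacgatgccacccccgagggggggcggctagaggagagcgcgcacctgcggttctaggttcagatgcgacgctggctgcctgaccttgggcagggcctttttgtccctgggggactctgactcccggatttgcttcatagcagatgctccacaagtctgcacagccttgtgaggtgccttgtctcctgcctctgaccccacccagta
Pkdcc downstream, EGR, chr17:83276367-83276666: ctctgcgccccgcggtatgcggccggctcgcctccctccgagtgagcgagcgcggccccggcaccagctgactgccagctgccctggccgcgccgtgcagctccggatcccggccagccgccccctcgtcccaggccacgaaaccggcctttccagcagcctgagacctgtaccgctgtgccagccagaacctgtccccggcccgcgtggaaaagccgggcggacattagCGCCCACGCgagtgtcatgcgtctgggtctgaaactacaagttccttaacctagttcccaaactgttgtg
n-TEttc7, chr7:58399251-58399450: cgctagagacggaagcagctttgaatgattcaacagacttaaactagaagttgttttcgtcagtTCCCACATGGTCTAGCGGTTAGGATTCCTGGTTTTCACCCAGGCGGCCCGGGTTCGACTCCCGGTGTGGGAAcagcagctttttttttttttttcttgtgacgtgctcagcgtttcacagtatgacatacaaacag
Fos downstream, SP/KLF, chr12:85486123-85486422: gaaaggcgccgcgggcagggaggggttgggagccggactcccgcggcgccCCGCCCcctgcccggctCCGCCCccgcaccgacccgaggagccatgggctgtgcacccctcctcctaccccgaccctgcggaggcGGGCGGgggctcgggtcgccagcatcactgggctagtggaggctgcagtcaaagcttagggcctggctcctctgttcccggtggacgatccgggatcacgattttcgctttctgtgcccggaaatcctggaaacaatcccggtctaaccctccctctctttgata
The window between genes held 23 CG dinucleotides in 300 bp, with a GC content of 66.3%, the intron window 11 and the farthest window 2, with a GC content of 33.3%. The first belongs to the strongest member, chr10:126927068-126931064, 27.7 kb upstream of Atp23, which encodes a mitochondrial metallopeptidase. Its signal was 40.4 in the replicated list, and the overlapping peaks had 45.1 in the list of pool C and 28.5 in that of pool D. Here and below, where several pool peaks overlap a member, the one with the longest overlap gives the value. It need not be the strongest. The intron window lies in the non-coding gene Gm16675, 52.6 kb upstream of Irf2, an interferon regulatory factor, in a member of signal 34.1 (37.3 in C and 24.5 in D). The farthest member, chr1:142043048-142044544, lay 412 kb from any basic TSS and 1597 kb from the nearest coding one, that of B3galt2, with a signal of 10.4 (10.3 in C and 8.24 in D). Of its 300 bp window, 66.7% was marked as repeat.

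Members were more often outside genes than weak peaks were. Their midpoint lay between genes for 1033 (44.3%) against 28.5% of weak peaks, and in an intron for 1167 (50%) against 66.2%. Coding exons held 2.27% of member midpoints and 2.17% of weak ones. In the peak list of pool C alone the same rule took 4076 peaks, of which 41.6% lay between genes against 27.6% of its weak peaks. In the list of pool D it took 988, of which 45.4% lay between genes against 28.2%. The gap between strong and weak peaks in each list was larger than the gap between the 2 lists. Members lay a median of 32.4 kb from the nearest coding TSS (quartiles 12.1 and 82.6 kb), weak peaks 38.9 kb (14.5 and 100 kb). The rule itself keeps every peak over 1 kb away. The nearest coding TSS was downstream of the peak, so that the peak lay upstream of the gene, for 46.4% of members and 34.5% of weak peaks.

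The share between genes also rose with signal within the weak peaks and within the members, though not at each step. Between genes lay 26.8% of peaks under 5 and 34.0% of those from 5 to 10. Among members the share was 41.0% from 10 to 12, 40.9% from 12 to 15, 53.7% from 15 to 20 and 65% at 20 or more. The share in introns went the other way, from 67.8% in the lowest class to 29.9% in the highest. The median distance to a coding TSS was 39.2 kb from 10 to 12, which equals that of peaks under 5, and 22.2 kb at 20 or more. Of the signal classes, the 137 strongest members thus had the lowest median distance to a coding TSS and the highest share outside genes.

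**Figure D1:**
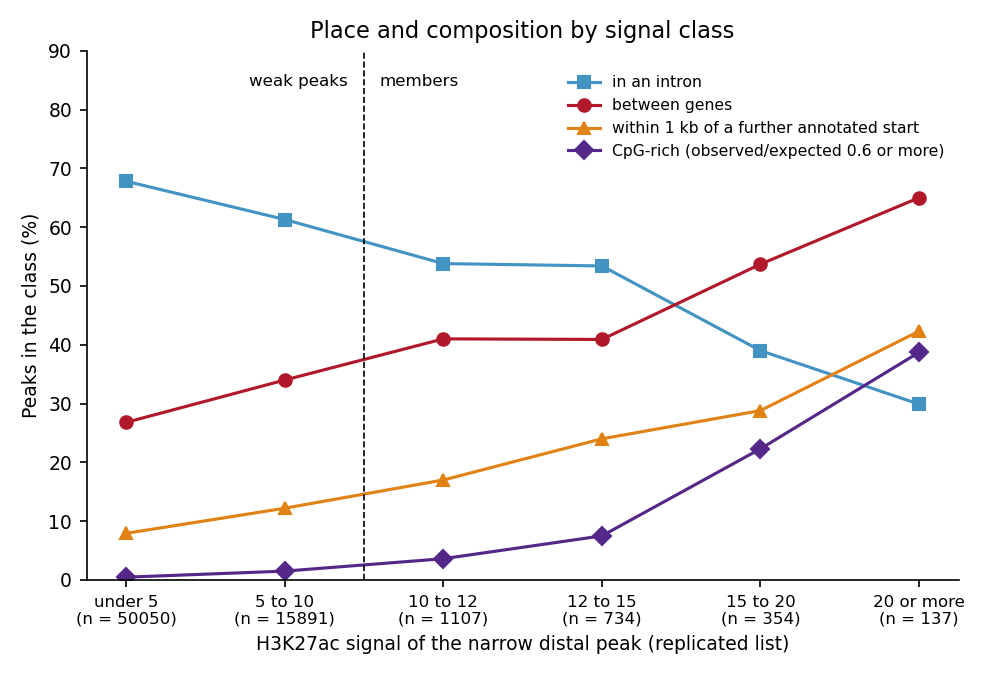
Share of narrow distal peaks (vertical axis, %) in each class of replicated-list signal (horizontal axis, with the number of peaks) for 4 features, weak peaks left and members right of the dashed line. The share between genes goes from 26.8% to 65% and the CpG-rich share from 0.468% to 38.7%, while the share in introns falls from 67.8% to 29.9%.

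Many of the strongest members coincided with start sites that the basic set leaves out. Within 1 kb of a RefSeq TSS lay 374 members (16.0%) against 4.64% of weak peaks, and within 1 kb of a TSS of the full GENCODE set 266 (11.4%) against 5.28%. Together 524 members (22.5%) lay at 1 or the other kind of further TSS, against 8.96% of weak peaks. By the same rule the shares were 18.6% against 8.82% in pool C and 29.4% against 10.2% in pool D. The share was 17.0% in members of signal 10 to 12 and 42.3% at 20 or more. Members at a further TSS had a median signal of 13.1, the others 11.9.

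CpG content separated the members in the same way. The ratio of observed to expected CG was taken in 1 kb on the peak midpoint. Its median was 0.257 in members, 0.204 in weak peaks and 0.571 in the 19671 replicated peaks that touch a TSS window. A ratio of 0.6 or more, called CpG-rich here, was found in 227 members (9.73%), in 0.716% of weak peaks and in 46.7% of the peaks at TSSs. In pool C the shares were 6.77% of strong and 0.646% of weak peaks, and in pool D 17.3% and 1.27%. Among members the share went from 3.61% at signals of 10 to 12 to 38.7% at 20 or more. It was 14.0% of members between genes and 3.68% of those in introns. Members were also wider, a median of 2536 bp against 810 bp for weak peaks and 1412 bp for the peaks at TSSs. Narrow thus means only under 5000 bp, and width was not matched in these comparisons.

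**Figure D2:**
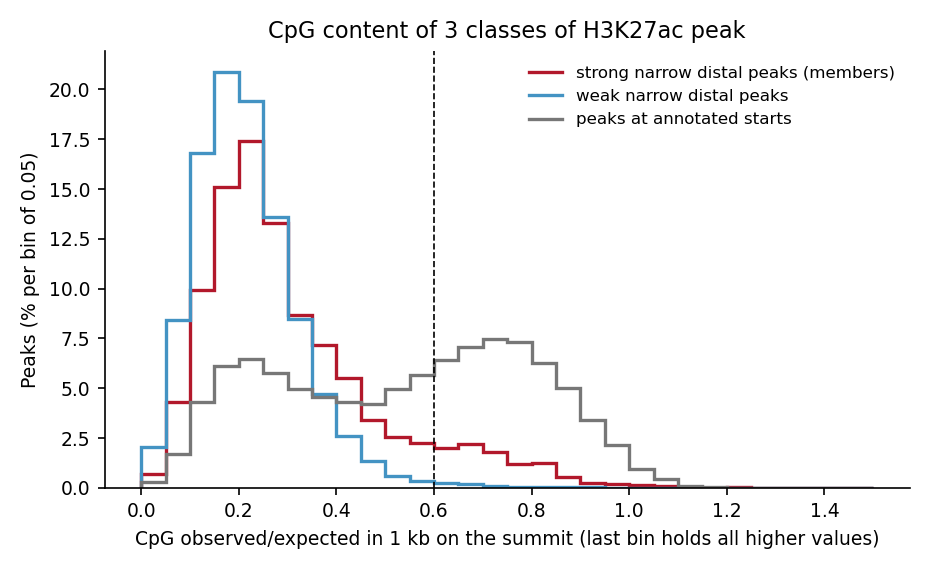
Distribution of the CpG observed/expected ratio in 1 kb on the peak midpoint (horizontal axis) as a percentage of peaks per bin (vertical axis) for members, weak narrow distal peaks and peaks that touch an annotated TSS window. The windows were centred on the midpoint, although the axis label names the summit. Most members lie with the weak peaks at low ratios, and 9.73% lie beyond the dashed line at 0.6, where 46.7% of the peaks at TSSs lie.

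Sorted by what is annotated at the peak, the members fell into 6 classes, formed after the values were seen. Each peak was put in 1 class, with tRNA genes first, so tRNA members such as the one at Tmpo can also lie at another RefSeq start. A tRNA gene start lay within 1 kb of 31 members, a curated RefSeq transcript start of a further 71, a predicted RefSeq start only of 272, and a start only in the full GENCODE set of 150. No annotated start lay near 115 CpG-rich members and 1693 CpG-poor ones, so 72.6% of members were CpG-poor and away from any start in these annotations, against 90.6% of weak peaks. Of all narrow distal peaks at tRNA genes, 28.7% were members, and of those that were CpG-rich with no annotated start 28.6%. The share was 16.2% at curated RefSeq starts, 9.42% at predicted ones and 2.76% in the CpG-poor class with no start. Over all narrow distal peaks it is 3.42%, the share the threshold gives.

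The tRNA members were the most compact class. Transfer RNA genes are short and are copied by RNA polymerase III, and their RNAs carry amino acids to the ribosome. The 31 peaks had a median signal of 15.3 (range 10 to 31.5) and a median width of 1317 bp, and 27 of them lay between genes and 22 were CpG-rich. In the list of pool C their signals had a median of 18.5 (11.4 to 33.7), with 14.2 over all members, and in the list of pool D 9.77 (2.97 to 22.9), with 8.81 over all members. The strongest, chr7:58397610-58400496, held the printed tRNA-Glu gene n-TEttc7, which is 72 bp long, and had 31.5 (33.7 in C and 22.9 in D). A member 8.08 kb upstream of Mpzl1 had 26.9 (29.5 and 20.3), and one 10.8 kb upstream of Tmpo had 25.3 (27.9 and 20.0). A pair of tRNA members stood low in pool D: the one at n-TEttc6 had 26.8 in C and 3.77 in D, and one 19.0 kb from Fcgr4 had 19.8 in C and 2.97 in D. Whether a stronger pool D peak overlaps them over a shorter stretch was not checked. Of 403 tRNA genes in RefSeq, 51 (12.7%) lay within 1 kb of a member, 97 (24.1%) of a weak peak and 74 (18.4%) of a peak at a TSS. tRNA genes have near-identical copies, and the sources used here do not say how reads that match several places were treated.

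The CpG-rich members with no annotated start were as strong. Their median signal was 15.6 and their median width 1660 bp, their GC content was a median of 57.9%, and 65.2% of the 115 lay between genes. The strongest was the SP/KLF window printed above, a member 32.9 kb upstream of Pum2, which encodes an RNA-binding repressor of translation, with 35.8 (40.0 in C and 28.3 in D). Next came a member 8.44 kb from Tex44 with 33.7 (38.3 and 21.4) and one on the X chromosome 18.9 kb upstream of Tmem29 with 31.8 (35.1 and 22.7). The CRE window printed above, with a signal of 30.3 (32.8 and 21.8), lay 89.5 kb downstream of 1700001O22Rik. Of the 25 strongest members, 7 were of this class, 9 were CpG-poor with no annotated start, 8 were at RefSeq transcript starts and 1 at a tRNA gene. None of these 25 rested on the full GENCODE set alone.

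The strongest members at RefSeq starts lay at further starts of the nearest gene or of predicted non-coding genes. The second, 24.1 kb upstream of the basic coding TSS of Bicral, and the third, 28.4 kb upstream of Mical3, both had a signal of 38.3, and each lay at a further start of that same gene. Bicral encodes a subunit of a BAF chromatin-remodelling complex and Mical3 a monooxygenase that acts on the cytoskeleton. The peak 2.02 kb upstream of Glyctk, a glycerate kinase gene, had 32.2 (37.1 in C and 23.2 in D). The member in an intron of Bbc3, the gene of the pro-apoptotic protein PUMA, had 29.3 (30.6 and 23.3). The peak 12.4 kb upstream of Ski, a repressor of TGF-beta signalling, had 27.7 (31.0 and 21.0).

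The 1693 CpG-poor members with no annotated start are the largest class. Their median signal was 11.8 (quartiles 10.7 and 13.6), with 13.7 in pool C and 8.60 in pool D. They too lay between genes more often, 44.4% against 29.4% of the 59743 weak peaks of the same kind, and in introns 51.8% against 66.0%. The distance to a coding TSS was closer between the classes here, a median of 38.4 kb (quartiles 15.4 and 98.1 kb) against 41.8 kb (15.7 and 107 kb). Their GC content in 1 kb was a median of 48.0% against 45.0%. The strongest ones were richer in CpG than most of the class, whose median ratio was 0.239 in 1 kb on the midpoint. There the ratio was 0.439 at the Atp23 peak, 0.546 at the Irf2 peak and 0.596 at the Dcn peak. In the printed 300 bp of the Atp23 peak, centred on the summit and not on the midpoint, it was 0.698, above the 0.6 limit. After the Atp23 and Irf2 peaks, the strongest lay 6.41 kb upstream of Chd4, a nucleosome-remodelling ATPase gene, with 31.1 (36.3 in C and 18.7 in D). A peak 166 kb upstream of Dcn, the decorin gene, followed with 30.2 (31.4 and 24.3), then 1 at 5.82 kb upstream of Lrsam1 with 30.0 (31.7 and 22.6). A peak 71.8 kb upstream of Irf2bp2, a corepressor gene, had 29.5 (34.5 and 20.8). Others near the top lay 5.39 kb upstream of Hook2 with 29.1 and 19.3 kb upstream of Ddit4 with 28.6.

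Of the 10 members farthest from any basic TSS, 9 had signals of 10.4 to 14.9, around the 12.1 median of all members. The strongest of the 10 lay 253 kb from any basic TSS and 613 kb upstream of Arid1b, a BAF complex subunit gene, with a signal of 19.3 (22.6 in C and 12.8 in D). Among the others were intronic members 207 kb inside Grin2a, an NMDA receptor subunit gene, with 12.3 (14.8 and 6.27), and 214 kb inside Rad51b with 14.9 (16.4 and 10.5). A member in Ctnna2, whose nearest coding TSS is that of the gene Lrrtm1 259 kb away, had 10.4 (9.99 and 9.83) and a CpG ratio of 0.0302. Lrrtm1 encodes a synaptic adhesion protein.

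The 2 pools ranked the members in partly the same order. Every member overlapped a peak in both pool lists, and 2261 (97.0%) were covered over at least 50% of their length in both, against 30.2% of weak peaks. Pool C alone gave that cover for 70 and pool D alone for 1. These lists come from the same libraries as the replicated one, so the overlap is a description. Member signals had a median of 14.2 in the list of C and 8.81 in that of D. How the signal of each list was scaled is not given, so the levels of the 2 lists are not compared. Spearman's rho between the 2 over 2332 members was 0.57, a description of peaks that share a list and a floor in signal. By the pool peak of longest overlap, 2268 members reached 10 in pool C, 703 in pool D and 698 in both. For 38 members the overlapping pool C peak was wide enough to touch a TSS window, so its value also holds a promoter. The member 4.16 kb inside Noct, with 10 in the replicated list, 44.1 in C and 7.20 in D, is 1 of these, as is the member 1.93 kb upstream of Ndrg2 with 13.3, 22.8 and 4.20.

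**Figure D3:**
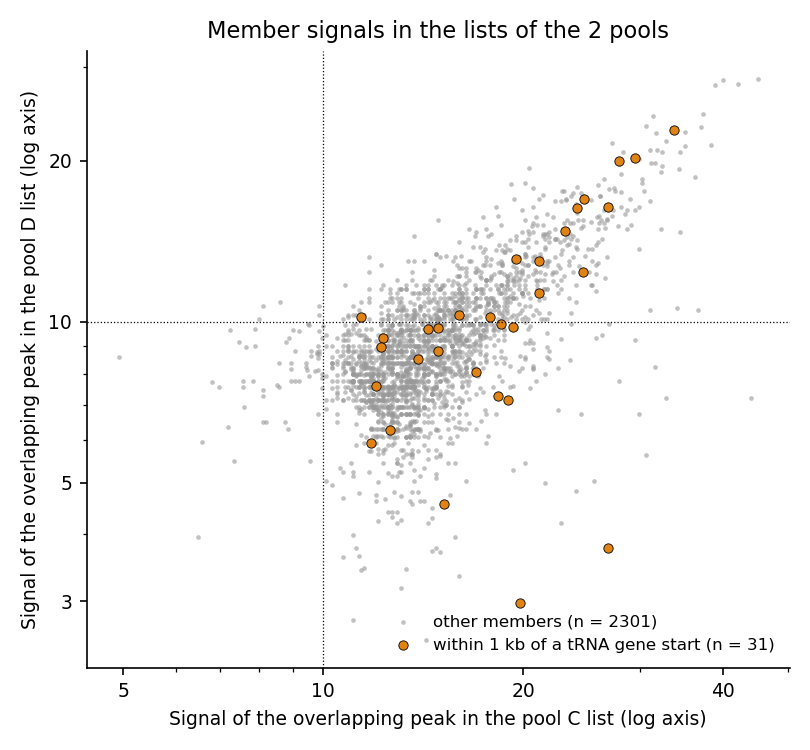
Signal of the peak that overlaps each member in the list of pool C (horizontal, log axis) and of pool D (vertical, log axis), 1 point per member, with the 31 members at tRNA genes in orange and dotted lines at 10. Where several peaks overlap a member, the one with the longest overlap is shown, which need not be the strongest. Points spread around a rising band (rho 0.57), and 2 tRNA members lie low in D at 3.77 and 2.97.

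Members had a near neighbour of their own kind in a minority of cases. Another member lay within 12500 bp of 412 (17.7%), and a member lay within 12500 bp of 8.87% of weak peaks. Any other replicated peak lay that close to 91.0% of members and 86.7% of weak peaks, a median of 3 in each. Joined at gaps of up to 12500 bp, members formed 1920 singles, 170 pairs, 16 triples and 6 clusters of 4. Some joined members nearly adjoin and may be pieces of 1 wider domain. At Irf2bp2, members at chr8:126664927-126666744 and chr8:126666838-126670040 had the same pool C signal, 34.5. How many of the joined members are such pieces was not counted. Of the 192 clusters, 174 had 1 nearest coding gene for all their members, and in 123 no member lay at a further TSS.

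The 6 clusters of 4 lay at Ddit4, Acta1, Neurod2, Trak1, Trpm3 and 1810013L24Rik. Ddit4 encodes REDD1, a stress-induced inhibitor of mTORC1, and its 4 members at chr10:59941749-59975243 had 28.6, 20.9, 17.9 and 10.3, with 12.6 to 20.2 in pool D for the first 3 and 6.71 for the last. All 4 were between genes, CpG-poor and at no further TSS. In pool C 1 peak of signal 29.9 spanned the first and the last. At Neurod2, which encodes a neuronal bHLH factor of the cortex and hippocampus, the signals were 23.9, 20.0, 14.5 and 10.9 (27.3, 23.4, 16.4 and 11.3 in C, and 16.2, 13.0, 10.3 and 8.60 in D). They stood at 4.27 to 15.9 kb on both sides of the gene, and the order was the same in all 3 lists. Trak1, which encodes an adaptor for the transport of mitochondria along axons, held its 4 in introns over 18.5 kb, with 10.5 to 18.7. Trpm3, an ion channel gene, held 4 in introns over 38.2 kb, with 10.9 to 17.0. The 4 at chr8:123878576-123893446 had Acta1, the skeletal muscle actin gene, as the nearest coding TSS, with 13.8 to 21.4 (13.6 to 24.0 in C and 4.82 to 14.3 in D). Of these, 3 lay in introns of Gm20388, a gene that overlaps Acta1, and Acta1 had no promoter peak. These 3 nearly adjoin, at 123878576-123881633, 123881746-123884958 and 123885043-123886613. The middle and right ones had the same pool C signal, 24.0. Clusters of 3 lay downstream of 1700001O22Rik (15.3 to 30.3), upstream of Ptma (10.3 to 27.6), at Bbc3 and Ccdc9 (15 to 29.3) and in introns of Vgll4 (13.3 to 22.2).

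By nearest coding TSS the members belonged to 1750 of 21827 coding genes, or 8.02%, and weak peaks to 10714, or 49.1%. Most of these genes, 1354, had 1 member, 281 had 2, 71 had 3 and 44 had 4 or more. The nearest gene is a label of position, and the gene a peak acts on was not measured. It was also the host of 793 of the 1167 intronic members. A promoter peak was present at 1476 of the 1750 genes, against 13198 of all coding genes, and by peak the share was 86.0% for members and 87.7% for weak peaks.

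The gene with most members was Celf2, which encodes an RNA-binding splicing regulator, with 9. Of these, 4 lay in its introns and 5 between genes, from 49.0 to 1168 kb away, and their signals were 10.1 to 17.6. One of them, 1141 kb upstream, had 4.92 in C and 8.60 in D, and 50.3% of its window was marked as repeat. Celf2 also had 248 weak peaks. At 1700001O22Rik there were 7 members of 10.9 to 30.3 beside 19 weak peaks. Rbfox1, a neuronal splicing factor gene, had 6 members (10.5 to 17.5), of which 5 were in its introns and 3 at a further TSS. The 6 of Trak1 were all in its introns. Zeb2, a transcription factor gene, had 6 of 10.1 to 13.0, with 5 of them between genes at up to 1249 kb upstream. Zfp706 had 6 of 10.4 to 22.6.

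Among genes with 5 members, Atp23 had the widest range, from 11.0 to the 40.4 of the strongest peak. Atp1b1, a sodium pump subunit gene, had 11.2 to 17.7, and Cdk5r1, which encodes the p35 activator of Cdk5, had 11.1 to 15.9. Myt1l, a neuronal transcription factor gene, had 10.1 to 16.9, and Tcf4, an E-protein gene, had 10.1 to 13.9. The 5 members of Anks1b, a postsynaptic scaffold gene, were all in its introns (10.2 to 15.3). Zfp608 (10.6 to 17.3), Vrk1 (10.3 to 16.1), Anp32a (10.1 to 14.3), Emp1 (10.5 to 13.5) and 1810013L24Rik (10.1 to 14.0) also had 5. Those with 4 and the highest sums were Irf2bp2 (15.4 to 29.5, all between genes and CpG-poor), Ddit4 and Arid1b (11.7 to 23.9). The promoter signal of these genes was 41.7 at Zfp706 and 39.4 at Anp32a, 4.59 at Atp23 and 3.01 at Emp1.

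**Figure D4:**
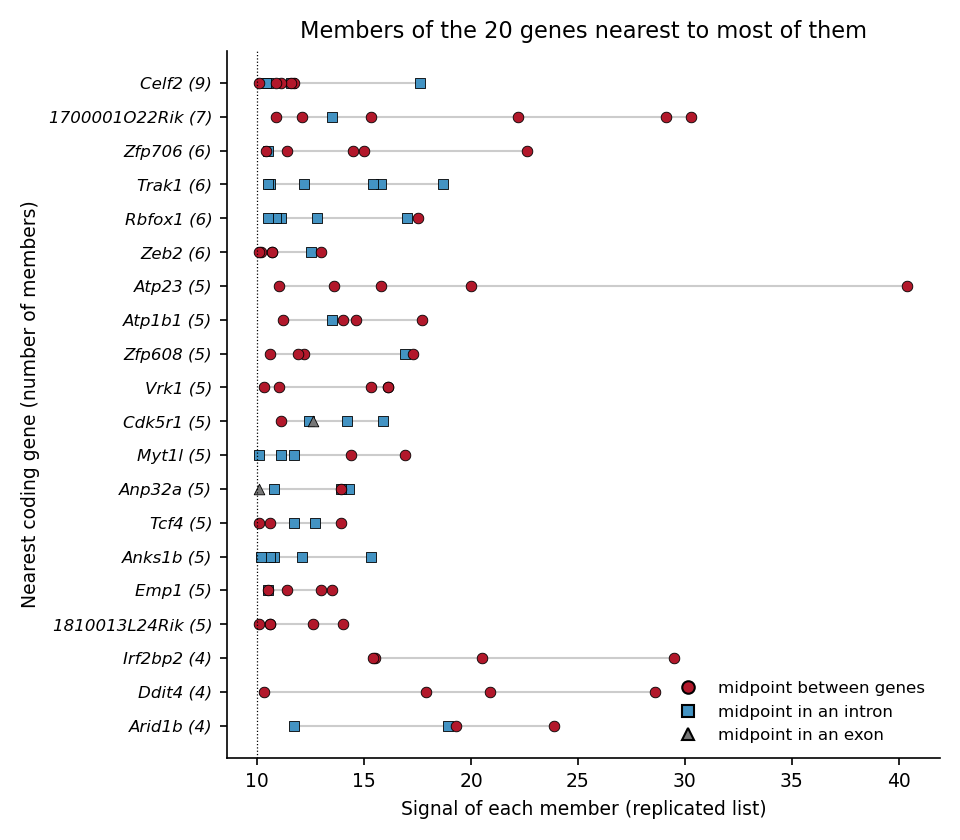
Signal of each member in the replicated list (horizontal axis) for the 20 coding genes nearest to most members (vertical axis, number of members in brackets), with the place of the peak midpoint by colour and shape. Most members of these genes lie between 10 and 18, and Atp23, 1700001O22Rik, Irf2bp2 and Ddit4 each have 1 or more above 28.

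Neuronal gene lists held genes with members more often than coding genes as a whole, of which 8.02% did. The interneuron list, at 9.09%, was near that share. Of 21 postsynaptic genes 12 (57.1%) were nearest to a member, of 20 excitatory neuron genes 10 (50%) and of 30 forebrain transcription factor genes 14 (46.7%). The lists for dentate granule cells and for pyramidal cells of the CA fields each had 5 of 16 (31.2%). Genes nearest to a weak peak were 90.5% of the postsynaptic, 100% of the excitatory neuron and 96.7% of the forebrain factor list. They were 87.5% of the dentate and 93.8% of the CA field list, against 49.1% of all coding genes. Genes of these lists also had many weak peaks, and of their narrow distal peaks the share that were members was 3.37% for postsynaptic, 2.81% for excitatory neuron, 2.48% for dentate and 3.83% for CA field genes. It was 4.15% for forebrain factor genes. Those shares lie on both sides of the 3.42% of all narrow distal peaks. The lists were counted without a test. In bulk tissue, fewer cells of a type and less of the mark per cell cannot be told apart.

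Of the 15 members of the 5 postsynaptic genes with most, 8 lay in the body of the gene itself. Dlg2, the PSD-93 scaffold gene, had 4 in introns (11.7 to 13.8) beside 134 weak peaks, and Dlgap1, another scaffold gene, had 3 in introns (10.2 to 10.5). Kalrn, which encodes a guanine nucleotide exchange factor of dendritic spines, had 3 of 13.2 to 16.3, with 2 at a further Kalrn start. Camk2b, a calcium/calmodulin kinase subunit gene, had 11.5 and 16.9, neither within the gene. The 3 of Lrrtm1 (10.1 to 10.4) lay in introns of Ctnna2. Among excitatory neuron genes, Grin2a and Grin2b each had 3 members (10 to 12.3 and 10.4 to 13.5). Mef2c, an activity-regulated transcription factor gene, had 1 strong member 170 kb downstream with 24.1 (25.9 in C and 18 in D). Prox1, which marks dentate granule cells and also some interneurons, had members 2.73 and 4.80 kb upstream with 11.8 and 14.8 (10.1 and 8.98 in D). In pool C both fell in 1 peak of 21.7 that touches a TSS window. Zbtb20, a hippocampal transcription factor gene, had 4 of 11.7 to 15.8 (11.4 to 17.0 in C and 8.87 to 12.4 in D).

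Activity genes are those that neurons switch on within minutes of firing. Of 24, 7 (29.2%) were nearest to a member, against 8.02% of all coding genes. Nearest to a weak peak were 95.8%, against 49.1% of all coding genes. Of their narrow distal peaks 12 were members and 161 were weak, or 6.94% members, against 3.42% of all narrow distal peaks. The share of members was 6.78% for housekeeping genes, 5.88% for erythroid genes and 26.3% for skeletal muscle genes, whose narrow distal peaks are fewer. The muscle members include the nearly adjoining ones at Acta1. Fos, an AP-1 subunit gene, had a member 18.4 kb upstream with 20.8 (25.7 in C and 13.9 in D) and the printed one 12.3 kb downstream with 18.2 (21.5 and 11.5). Fosb had 17.5 (19.3 and 12.7) at 10.1 kb and 17.2 (20.1 and 11.7) at 16.9 kb upstream, both within the non-coding gene D830036C21Rik, and no weak peak. Nr4a1, an orphan nuclear receptor gene, had 20.0 (23.8 and 12.4) at 7.62 kb upstream and a weaker one (14.4 and 9.23 in the pools) at 12.6 kb. Jun had 20.9 (18.2 and 16.4) at 109 kb and 10.5 (12.1 and 7.55) at 69.5 kb upstream, in introns of the non-coding gene Junos and farther off than the median member. Egr1 had 12.1 (14.8 and 7.97) at 4.36 kb upstream and 13.9 (14.6 and 9.86) at 26.3 kb downstream. Both Fos members stood above the promoter peak of Fos (11.8) and the stronger Nr4a1 member above that of Nr4a1 (12.3), while the promoter peaks of Jun (24.3), Fosb (21.0) and Egr1 (15) stood above both members of each.

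Glial and other lists had fewer genes with a member than the 3 leading lists. Genes nearest to a weak peak were 80.0% of the astrocyte, 92.3% of the oligodendrocyte precursor, 85.0% of the oligodendrocyte and 70.0% of the microglia list. Each of these is also above the 49.1% of all coding genes. Of the narrow distal peaks of each list, the share that were members was 3.05% for astrocyte, 4.40% for oligodendrocyte precursor, 4.35% for choroid plexus, 1.59% for microglia and 1.48% for oligodendrocyte genes. It was 2.25% for presynaptic genes. Astrocyte genes had 5 of 20 (25%), with Slc1a3, a glutamate transporter gene, at 3 members (10 to 11.2) and Aqp4, the water channel gene, at 2 (10.1 and 10.5). Oligodendrocyte precursor genes had 3 of 13 (23.1%), with Sox8 at 10.1 and 19.5. Presynaptic genes had 4 of 20 (20.0%), among them Cplx2 with 2 members. Oligodendrocyte genes had 1 of 20 (5%), the myelin gene Mog, with 26.9 at 5.69 kb upstream (26.9 in C and 17.7 in D) and 11.0 in an intron. Microglia genes also had 1 of 20, Ptprc, which encodes CD45, with 17.3 in an intron and no promoter peak. Interneuron genes had 2 of 22 (9.09%), Prox1 and Cnr1. Endothelial and mural genes (Pecam1 and Rgs5, each 11.1) and housekeeping genes (among them Ywhaz) had 2 of 20 each, or 10%. Choroid plexus genes had 1 of 12 (8.33%), Kl, with 18.7.

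Lists of other tissues are a reference for this count. Liver genes had 0 of 20 and Hox genes 0 of 39. Skeletal muscle genes had 2 of 18 (11.1%), T cell genes 2 of 18, and epidermis and erythroid genes 2 of 16 each. The muscle count rests on the Acta1 cluster and on Casq1 (10.9), and the T cell count on Bcl11b, which is also a forebrain factor (10.2 to 11.2), and Cd6 (13.3). The epidermis count rests on Dsc3, 398 kb away, and Tgm3, 103 kb away, where the nearest coding TSS is far off. The liver, Hox, microglia and oligodendrocyte lists lay under the 8.02% of all coding genes, and the other 17 above it.

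**Figure D5:**
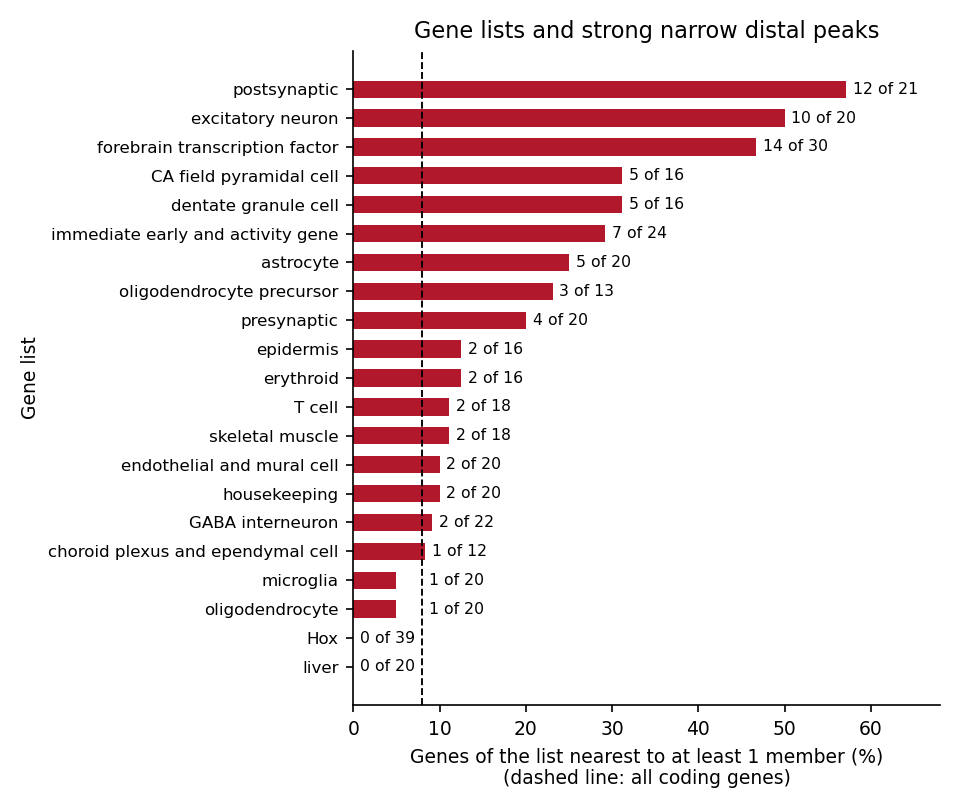
Share of the genes in each list that are the nearest coding gene of at least 1 member (horizontal axis, %, with counts) for the 21 gene lists (vertical axis), beside the 8.02% of all coding genes (dashed line). The postsynaptic, excitatory neuron and forebrain factor lists lie highest, from 57.1% to 46.7%, and the liver and Hox lists are at 0.

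Some members coincided with enhancers tested in transgenic mouse embryos by the VISTA project, which RefSeq lists with the tissues stained. Of 620 such elements 44 (7.10%) held a member summit, and 172 (27.7%) held only a weak summit. By peak, 45 members (1.93%) and 0.305% of weak peaks had their summit in one. Elements active in embryonic forebrain were hit in 13 of 167 cases (7.78%) and the others in 31 of 453 (6.84%), so the forebrain share was near that of all elements. The highest share among tissues with over 20 elements was 17.4% for the trigeminal ganglion, which is 4 of 23, and heart stood at 4.40%. The strongest hit was mm1295, with forebrain staining in 6 of 9 embryos, 71.8 kb upstream of Irf2bp2, which had the 29.5 peak given above. Others were mm318 near Ski (27.7), mm1612 near Cstad (24.5) and mm1481 near Actg1 (22.8). The 20.8 member of Fos lay in mm260 and the 17.5 member of Fosb in mm567, both listed with heart staining.

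Consensus motifs were searched on both strands in 300 bp on the summit. A match is a description of the letters and not of binding. SP/KLF, GGGCGG, was present in 14.8% of members, 4.45% of weak peaks and 38.6% of peaks at TSSs, and in 9.39% against 3.91% among CpG-poor peaks with no annotated start. ETS, CCGGAAG, stood at 3.26% against 1.44%, and 7.09% at TSSs. CRE, TGACGTCA, which CREB binds, was in 13 members (0.557%) against 0.193%, and EGR, GCGTGGGCG, in 9 (0.386%) against 0.0652%. NRF1 was in 4. These are few windows, and GC content was higher in members, a median of 51.7% of the 300 bp against 46.7%. The AP-1 motif TGANTCA, in which N is any base, did not separate the classes, at 8.92% against 9.62%, although the peaks at TSSs had 4.98%. Of 2 E-boxes, CAGCTG was at 22.4% against 18.9%, and CAGATG, which neuronal bHLH factors such as NEUROD bind, at 22% against 25.4%. SOX, ACAATGG (3.52% against 4.16%), RORE, TAGGTCA (2.53% against 3.03%), and MEF2 (0.729% against 0.846%) were no more frequent in members. PU.1, GAGGAAGT, stood at 2.19% against 1.91%, RFX at 0.429% against 0.262%, and CTCF at 0.300% against 0.164%. The order of the classes turned with the window for RFX (0.0858% against 0.152% in 200 bp) and MEF2 (1.89% against 1.53% in 500 bp), and for no other of the 15 motifs in the windows tried. NFI, as its full palindrome, was in no member and in 0.0349% of weak peaks. SP/KLF matches can overlap EGR matches, and CAGCTG, TGACGTCA and TGANTCA read the same on both strands.

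By chromosome, members were from 0.655 per Mb on chromosome 1 to 1.5 on chromosome 11 among the autosomes. The X chromosome, of which these males carry 1 copy, had 30 members or 0.175 per Mb, and the Y none. Weak peaks were also sparse on X, at 4.29 per Mb against 22.5 or more on each autosome, and members were 3.93% of the narrow distal peaks there.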

How the data were processed

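H3K27ac ChIP-seq of 4 samples (2 pools, each with 2 technical replicates) gave 4 peak lists on mm10: replicated (88930 peaks), both pools together (102643, used only as an alternative), pool C (94836) and pool D (63623). The authors deposited a signal per peak and a −log10 q value. The sources used here name no aligner or caller and do not give how the signal was scaled. The technical replicates were already joined. Places and TSSs came from GENCODE M21, and further TSSs, tRNA genes, VISTA elements and sequence from RefSeq GRCm38.p6. A midpoint was assigned to coding exon, other exon, intron or between genes, in that order. Interval functions were tested on simulated data. Python 3.11.15, numpy 2.4.6, pandas 2.3.3, pysam 0.24.0 and matplotlib 3.10.9 were used.

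The members, 21 gene lists, 15 motifs and rules were chosen with earlier results of these data known. Named were the 25 strongest and 10 farthest members, the 10 largest clusters, the 20 genes with most members and up to 5 per list, and some of these are not reported here. The rule also takes 2 windows, with an NRF1 match and in a coding exon, that are not printed. Windows with untranslated or non-coding exons were passed over, as was the first printed window for its SP/KLF match. The classes by annotation, the tRNA count and members named in those classes were chosen after the values were seen.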

Additional observations from a re-analysis of the deposited data

How the results depend on the processing

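The signal threshold, the width limit and the list set how many members there are. The count was 4975 at a threshold of 8, 1225 at 12, 1138 at widths under 2500 bp, 4076 in the list of pool C and 988 in that of pool D. The share between genes was 41.2% at 8, 47.3% at 12, 41.6% in pool C, 39.7% at any width and 47.6% with TSSs of all GENCODE transcripts. The median distance to a coding TSS was 36.0 kb at 8, 27.4 kb at 12, 35.9 kb in pool C, 23.4 kb in pool D, 35.7 kb with a TSS window of 2.5 kb, 35.4 kb with all GENCODE TSSs and 36.8 kb with those of RefSeq as well, an alternative added after seeing the data. The share with another member within 12500 bp was 27.2% at 8, 11.8% at 12, 23.4% in pool C, 13.5% in pool D, 24.3% at any width and 15.4% with RefSeq TSSs as well, and it was 10.4% for gaps of 5 kb and 25.8% for 25 kb. Genes nearest to a member numbered 3062 at 8, 1032 at 12, 2668 in pool C and 830 in pool D. Cover in both pools was 95% at 8, 97.6% at 12, 100% at an overlap of 1 bp and 80.1% at 50% in both directions. In these alternatives the cause was not tested, beyond the number of peaks each one takes. In all, 33 values were labelled as moved and 32 were not. A count was so labelled beyond a factor of 1.5, and a share or median outside a range around the main value. For the share between genes that range was 42.3% to 46.3%. Ranges for shares treat peaks as independent, which they are not. The labels therefore only sort the alternatives and measure no spread between pools. No paired analysis was possible because the lists join the technical replicates of each pool and no result comes from a test over samples. Depth is unknown, so missing peaks and the gap between the pools' counts set no limit on the mark itself.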
